A study of Homo sapiens with 3 samples.

Results

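The collagen chain genes are the genes whose products wind together into collagen. They were chosen by symbol alone, as every gene of the count table whose name is COL, a number, A and a number and nothing else. This gave 44 chain genes among the 19220 genes of the table, and the rule uses no expression value. Of the 44 chains, 28 averaged 10 or more counts per library and entered the comparisons, and 16 lay below this limit. Several chains were past 2-fold in CAL27/5FU or CAL27/OXA, the resistant lines derived from CAL27. COL8A1 went from 6 counts in CAL27 cells to 2533 and 2760 in them, COL7A1 was 3.06-fold and 3.92-fold lower, and COL17A1 was 2.61-fold lower in CAL27/5FU and close to CAL27 in CAL27/OXA. Among chains of low level, COL4A4 was 4.48-fold, COL4A3 3.81-fold and COL1A2 3.32-fold higher in CAL27/5FU.

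Collagens are trimers of α chains that share stretches with glycine at regular positions, the Gly-X-Y repeat. Fibrillar collagens build the cables of connective tissue and come mainly from fibroblasts, whereas epithelial cells lay down the network collagens of the basement membrane. COL17A1 (collagen XVII, BP180) spans the membrane of basal keratinocytes in the hemidesmosome, and COL7A1 forms the anchoring fibrils that tie the basement membrane to the connective tissue beneath it. COL8A1 and COL8A2 are the short chains of collagen VIII, a network collagen best known from endothelium and from the cornea.

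The study asked how oral squamous cell carcinoma (OSCC) cells become resistant to chemotherapy. CAL27 is an established human OSCC line, labelled wild type and grown without drug. CAL27/5FU is its 5-fluorouracil (5FU) resistant derivative, obtained with rising concentrations of the drug and kept in 10 μM 5FU, and CAL27/OXA is an oxaliplatin (OXA) resistant derivative kept in 10 μM OXA. The resistant lines were thus grown with drug and the parental line without it, so that resistance and the presence of drug cannot be told apart, and the sources used here do not say whether the derivatives are clones. Total RNA of 1 library per line was sequenced and analysed here, with 41786182 counts for CAL27, followed by 37297713 for CAL27/5FU and 43455488 counts for CAL27/OXA. At least 1 count was found for 15275, 15407 and 15368 genes, respectively. The tables also hold 3 columns that are named as second samples of the same lines. They match no sample label and were not used, so that 1 library per line was left, no replicate check was made and neither a test nor a p-value is given. Ratios are log2 ratios of counts scaled to library size (CPM), and a gene past 2-fold on this scale was called higher or lower. The log2 ratios include a prior count of 2 and the folds do not, so that at low counts a fold is larger than its log2 ratio gives. The log2 ratios of the chains are given with a 95% interval (exact Clopper-Pearson, from both counts), those of other genes mostly without, and this interval, like the floor of 3 counts that stands in for a count of 0, covers counting error only. Both resistant lines were compared with the same CAL27 library, so their ratios are not independent of each other. In these bulk RNA samples, fewer cells making a transcript and less transcript per cell cannot be told apart. Where 3 values follow a gene or class, they are those of CAL27, CAL27/5FU and CAL27/OXA in this order, and a pair of log2 ratios gives CAL27/5FU and then CAL27/OXA, each to CAL27.

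The labelled cell type was checked first with marker genes. All 8 squamous epithelial markers (KRT5, KRT6A, KRT14, TP63, EPCAM, CDH1, DSG3 and SFN) were expressed in all 3 libraries. Their summed counts were 476864 in CAL27 against 111737 in CAL27/5FU and 194849 in CAL27/OXA, and the most abundant of them by FPKM (fragments per kilobase of gene length, scaled to library size) was KRT5 in CAL27 and CAL27/5FU and SFN in CAL27/OXA. Of the 8 markers, 6 were lower in CAL27/5FU and 4 in CAL27/OXA, beside 6.72% and 9.28% of all tested genes. KRT14, the keratin of basal cells, had 58222, 948 and 8423 counts, whereas EPCAM, an epithelial adhesion molecule, had 9428, 12457 and 10990. Of the fibroblast markers, THY1 and COL3A1 were at 0 in every library. PDGFRA had 0, 6 and 2 counts and DCN 2, 6 and 8. The 9 fibroblast markers summed to 1639, 1858 and 2237 counts, mostly COL1A1 and LUM, and 4 of the 9 were tested. The 5 endothelial markers, included because collagen VIII is known from endothelium, summed to 101, 367 and 209 counts. CDH5 alone gave 43, 338 and 163 of these, while PECAM1 had 13, 6 and 11 and TEK 1, 1 and 0. The 4 leukocyte markers summed to 3154, 1839 and 5062 counts, of which CD68 gave 3143, 1827 and 5055, and PTPRC had 2, 0 and 0.

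The collagen genes as a whole took 0.311% of all counts in CAL27 (95% Wilson interval 0.309 to 0.313), 0.241% in CAL27/5FU (0.239 to 0.242) and 0.278% in CAL27/OXA (0.276 to 0.279). Between CAL27/5FU and CAL27, 6 of the 28 tested chains were higher by over 2-fold (21.43%) and 3 were lower (10.71%). Among all 13676 tested genes the shares were 8.46% higher and 6.72% lower. With total counts in place of TMM scaling, 8 chains were higher and 3 lower, among 1432 higher and 699 lower genes in all, against 1157 and 919 here. Between CAL27/OXA and CAL27, 5 chains were higher (17.86%) and 4 lower (14.29%), against 6.54% and 9.28% of all tested genes (894 and 1269). Total counts gave 5 chains higher and 3 lower there, among 1100 higher and 1052 lower genes. The filter took the mean of the 3 libraries, for chains and all genes alike. COL8A1 and COL24A1 thus passed it only through the resistant lines, and COL2A1 only through CAL27 and CAL27/OXA. With a mean of at least 50 counts, 24 chains and 12206 genes were left. Of these, 4 chains were higher and 2 lower in CAL27/5FU (760 and 655 genes), and 4 and 4 in CAL27/OXA (608 and 951 genes). The median log2 ratio of the chains was 0.39 in CAL27/5FU and 0.02 in CAL27/OXA, beside -0.0035 and 0.0055 over all tested genes. Whatever the direction, the median absolute log2 ratio was 0.66 and 0.58 for the chains and 0.33 and 0.34 for all tested genes.

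**Figure D1:**
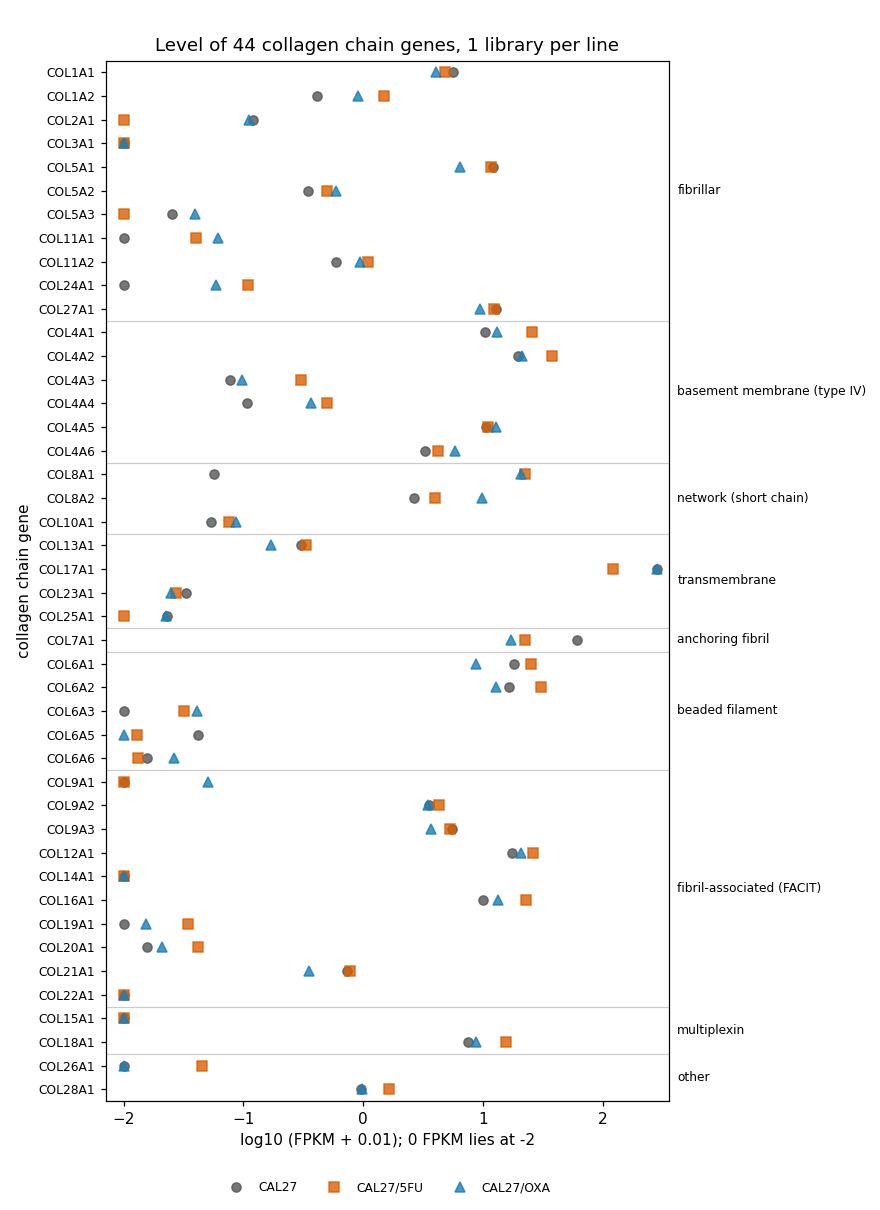
Level of each of the 44 collagen chain genes as log10 (FPKM + 0.01) on the horizontal axis, by class, with circles for CAL27, squares for CAL27/5FU and triangles for CAL27/OXA (1 library each). COL17A1 stands furthest to the right in all 3 libraries, COL8A1 is far to the left in CAL27 alone, and the 4 chains COL3A1, COL14A1, COL15A1 and COL22A1 lie at 0 FPKM in every library.

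The chains were put into 9 classes by their structure, namely fibrillar (11 chains), basement membrane or type IV (6), short-chain network (3), transmembrane (4), anchoring fibril (1), beaded filament (5), fibril-associated with interrupted helices or FACIT (10), multiplexin (2) and other (2). The Gly-X-Y repeats of the GENCODE 29 translations, counted in runs of at least 3 triplets, differ between these classes. The longest run of each fibrillar chain was between 216 and 343 triplets. In type IV chains the longest run was between 38 and 66 triplets, and each chain was broken into 22 to 27 runs. COL8A1 (744 residues) and COL8A2 (703 residues) had longest runs of 60 and 59 triplets. COL17A1, with 1497 residues, had 22 runs that cover 40.28% of the chain, the longest being of 55 triplets. COL7A1, with 2944 residues, held 474 triplets in 20 runs. The longest runs are therefore those of the fibrillar chains, although in COL24A1 and COL27A1 they hold 216 and 217 of 330 triplets, whereas COL17A1, which had the highest level of all chains in these cells as given next, is much interrupted.

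Per gene length, the summed level of the 44 chains was 504 FPKM in CAL27 against 415 in CAL27/5FU and 479 in CAL27/OXA. Of the classes, transmembrane collagen made up 56.3% of this sum in CAL27 against 29.5% in CAL27/5FU and 59.1% in CAL27/OXA. Anchoring fibril collagen had 12.2%, 5.44% and 3.57%. Type IV collagen took 8.72%, 19.1% and 11.04%, and the fibrillar class 6.35%, 7.71% and 4.71%. The network class went from 0.539% of the collagen FPKM in CAL27 to 6.33% in CAL27/5FU and 6.39% in CAL27/OXA. In each library a single chain, COL17A1, accounted for almost all of the transmembrane sum. Without COL17A1, the remaining chains summed to 221 FPKM in CAL27 against 292 in CAL27/5FU and 196 in CAL27/OXA, so that the order of the libraries was then not that of the full sum.

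**Figure D2:**
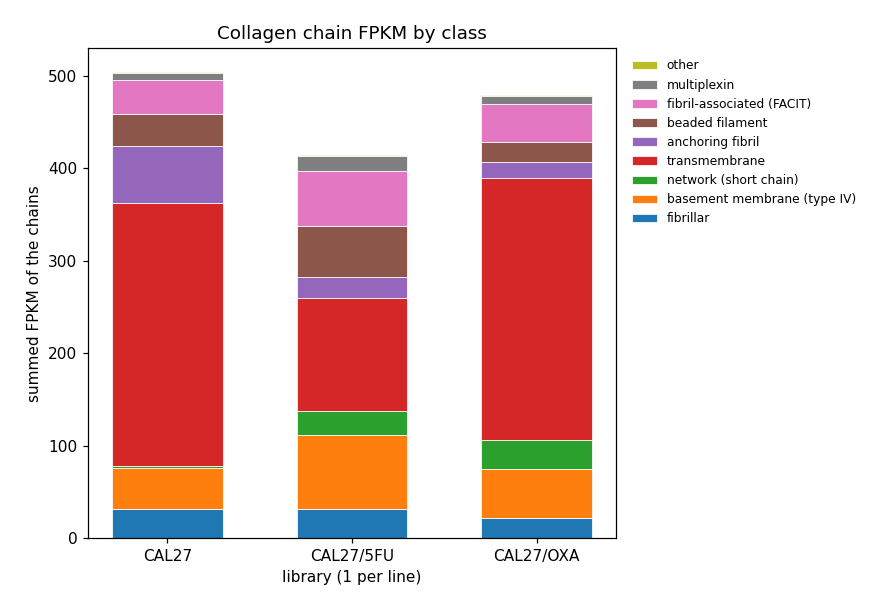
Summed FPKM of the collagen chains on the vertical axis in each library (1 library per line), stacked by class. The transmembrane segment is the tallest in each bar and shrinks from 284 FPKM in CAL27 to 122 in CAL27/5FU, and the network segment, 2.72 FPKM in CAL27, is visible at 26.2 and 30.6 FPKM in the resistant lines.

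COL17A1, the transmembrane collagen of the hemidesmosome, had 66476 counts in CAL27 against 25563 in CAL27/5FU and 69034 in CAL27/OXA. Its level was 284, 122 and 283 FPKM, rank 204, 539 and 199 of all genes by FPKM. It was thus the most abundant collagen chain in each library, low in CAL27/5FU and nearly equal in the other libraries. In CAL27/5FU it was 2.61-fold lower than in CAL27 (log2 -1.39, -1.41 to -1.36). The log2 ratio of CAL27/OXA to CAL27 was -0.14 (-0.15 to -0.12), well within 2-fold. The squamous markers KRT14 and KRT5 were low in CAL27/5FU too, but they were also 7.88-fold and 4.49-fold lower in CAL27/OXA, where COL17A1 was nearly level, and EPCAM and CDH1 had log2 ratios of 0.39 and -0.14 in CAL27/5FU. TP63 and SFN, like COL17A1, were lower in CAL27/5FU and within 2-fold in CAL27/OXA. The part of such markers in the COL17A1 ratio was not tested. The gene lies on chromosome 10 of GRCh38 from 104031286 to 104085957, minus strand (ENSG00000065618.19). Of the 10 tested genes nearest to it, 2 were lower in CAL27/5FU and their median log2 ratio was -0.29. The other transmembrane chains were scarce. COL13A1 had 37, 36 and 21 counts, with log2 ratios of -0.04 (-0.75 to 0.66) and -0.94 (-1.85 to -0.20), and COL23A1 (3, 2 and 2 counts) and COL25A1 (2, 0 and 2) stayed at or under the floor of 3 counts, where no ratio can be given.

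COL7A1, the single chain of the anchoring fibril, had 23498 counts in CAL27 against 7720 in CAL27/5FU and 6831 in CAL27/OXA, which is 61.3, 22.6 and 17.1 FPKM. It was high in CAL27 and low in both resistant lines. The gene was 3.06-fold lower in CAL27/5FU (log2 -1.61, -1.65 to -1.58) and 3.92-fold lower in CAL27/OXA (log2 -1.97, -2.01 to -1.93). Its rank by FPKM among all genes went from 1289 in CAL27 to 3748 and 4672. The squamous markers KRT5, KRT6A, KRT14 and DSG3 were lower in both lines too, DSG3 in CAL27/OXA by an interval that crossed the 2-fold line. TP63 and SFN were lower in CAL27/5FU alone, and EPCAM and CDH1 were within 2-fold in both lines. The part of such markers in the COL7A1 ratios was not tested. Of the 10 nearest tested genes on chromosome 3, 2 were lower in CAL27/5FU and 3 in CAL27/OXA, with medians of -0.34 and -0.40. COL7A1 lies at 48564073 to 48595267 on the minus strand (ENSG00000114270.17).

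COL7A1 and COL17A1 were the abundant chains that were lower in CAL27/5FU, and the bases before their starts are shown here for that reason. The windows were taken from RefSeq promoters (GRCh38.p14), cut to the bases upstream of both the RefSeq and the GENCODE 29 start, and are written 5′ to 3′ on the minus strand. Capitals mark matches on either strand to the GC box GGGCGG, the CCAAT box, the TATA box TATAAA, the AP-1 site TGANTCA or the E-box CACCTG, none of which contains another. The stretch of COL7A1 is chr3:48595330-48595579 and that of COL17A1 is chr10:104085958-104086130.
COL7A1: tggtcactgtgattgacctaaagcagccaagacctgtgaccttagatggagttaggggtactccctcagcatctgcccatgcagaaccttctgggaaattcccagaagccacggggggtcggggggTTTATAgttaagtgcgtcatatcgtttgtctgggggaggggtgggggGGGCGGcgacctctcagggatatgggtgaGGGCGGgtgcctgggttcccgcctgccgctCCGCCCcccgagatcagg
COL17A1: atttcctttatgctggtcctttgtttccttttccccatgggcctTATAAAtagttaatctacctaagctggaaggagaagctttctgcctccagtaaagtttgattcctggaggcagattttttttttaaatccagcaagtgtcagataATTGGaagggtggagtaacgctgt
The COL7A1 stretch had a GC content of 60.8% and 3 GC boxes, whereas that of COL17A1 had 40.5% and 0 GC boxes. Each held 1 TATAAA match, and COL17A1 also held 1 CCAAT match. In the 35116 RefSeq promoter windows of 300 bases, 44.95% held a GC box, 34.61% CCAAT, 11.53% TATAAA, 7.71% the AP-1 site and 20.59% CACCTG. Of the 44 chain symbols, 32 matched a promoter entry (44 windows, several genes having more than 1 start). A GC box was found in 24 of these 44 windows, CCAAT in 14, TATAAA in 8, CACCTG in 5 and the AP-1 site in 1. A match to so few letters is a description of the sequence and not a binding site.

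COL8A1, the network chain, had 6 counts in CAL27 against 2533 in CAL27/5FU and 2760 in CAL27/OXA. Its level was 0.0469 FPKM in CAL27, near the limit of detection, and 22.2 and 20.8 FPKM in the resistant lines, which placed it at rank 3807 and 4010 of all genes instead of 14109. The log2 ratio to CAL27 was 8.32 (7.59 to 10.16) in CAL27/5FU and 8.26 (7.53 to 10.10) in CAL27/OXA. Without the prior count the CPM were 420-fold and 403-fold those of CAL27. The width of these intervals comes from the 6 counts in CAL27. Between the resistant lines the log2 ratio was -0.06 (-0.14 to 0.02), an interval that includes 0. COL8A1 lies on chromosome 3 from 99638475 to 99799226, plus strand (ENSG00000144810.15), and the 10 nearest tested genes had median log2 ratios of -0.44 in CAL27/5FU and 0.40 in CAL27/OXA. One of them was higher in CAL27/5FU and 2 in CAL27/OXA, with no ratio above 1.56. The endothelial marker CDH5 was higher in the same lines, at log2 2.91 (2.51 to 3.46) in CAL27/5FU, while PECAM1, TEK and KDR stayed at 13 counts or fewer in every library. VWF, the remaining marker, had 44, 19 and 29 counts and went the other way, being lower in CAL27/5FU (log2 -1.14, -2.08 to -0.41) by an interval that crossed the 2-fold line. The part of these markers in the COL8A1 ratio was not tested.

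COL8A2, the other chain of collagen VIII, had 490 counts in CAL27 against 660 in CAL27/5FU and 1900 in CAL27/OXA (2.63, 3.96 and 9.80 FPKM). It was high in CAL27/OXA alone, with a log2 ratio of 1.76 (1.62 to 1.91) to CAL27 and of 1.34 (1.21 to 1.47) to CAL27/5FU. In CAL27/5FU the ratio to CAL27 was 0.42 (0.25 to 0.59). The FPKM ratio of COL8A1 to COL8A2 therefore turned from 0.0179 (0.00652 to 0.0391) in CAL27 to 5.60 (5.13 to 6.11) in CAL27/5FU and 2.12 (1.997 to 2.25) in CAL27/OXA. COL10A1, the remaining network chain and a marker of hypertrophic cartilage, had 6, 8 and 11 counts and was not tested.

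**Figure D3:**
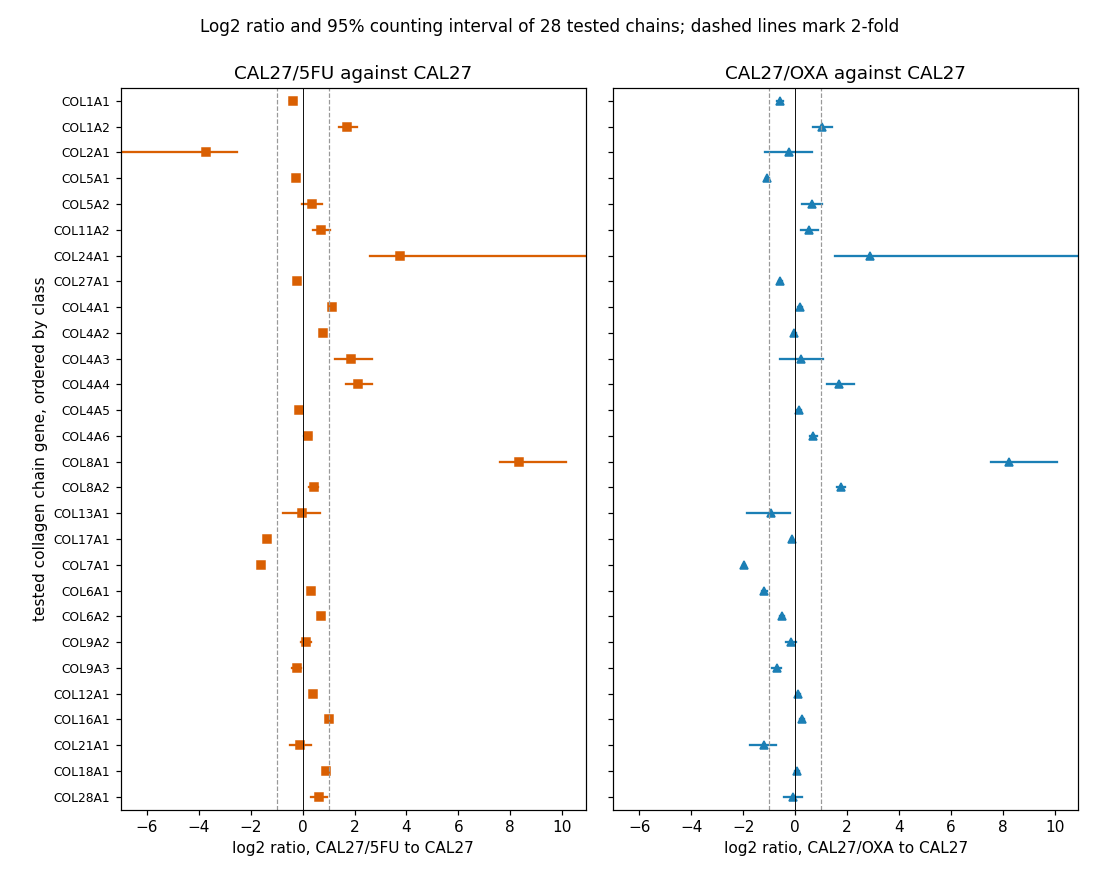
Log2 ratio of the 28 tested chains to CAL27, with 95% counting intervals, for CAL27/5FU (left, squares) and CAL27/OXA (right, triangles), ordered by class, with dashed lines at 2-fold. COL8A1 lies beyond 8 on the log2 scale in both panels and COL7A1 left of the lower line in both, whereas COL17A1 is left of it for CAL27/5FU alone. The point of COL2A1 for CAL27/5FU and both points of COL24A1 depend on the prior count of 2, since 1 library of the pair had 0 counts.

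The basement membrane chains of type IV collagen are encoded as pairs of neighbouring genes that point away from each other. COL4A1, of the ubiquitous α1 and α2 network, had 1991 counts in CAL27 against 4360 in CAL27/5FU and 2569 in CAL27/OXA. It was 2.18-fold higher in CAL27/5FU (log2 1.12, 1.05 to 1.20) and within 2-fold in CAL27/OXA (0.18, 0.09 to 0.26). COL4A2, its partner and the most abundant type IV chain, had 5274, 9119 and 5880 counts (19.5, 37.8 and 20.9 FPKM). Its log2 ratio was 0.78 (0.73 to 0.83) in CAL27/5FU, short of 2-fold, and -0.03 (-0.09 to 0.02) in CAL27/OXA. Both chains were thus highest in CAL27/5FU, where the ratio of COL4A1 to COL4A2 by FPKM was 0.678 (0.653 to 0.703) against 0.535 (0.508 to 0.563) in CAL27. COL4A2-AS2, whose exons overlap COL4A2 on the other strand, had 0, 0 and 2 counts.

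COL4A3 and COL4A4 belong to the tissue-restricted α3, α4 and α5 network known from the kidney glomerulus. COL4A4 had 42 counts in CAL27 against 189 in CAL27/5FU and 160 in CAL27/OXA, and was 4.48-fold higher in CAL27/5FU (log2 2.11, 1.67 to 2.68) and 3.34-fold higher in CAL27/OXA (1.70, 1.24 to 2.27). COL4A3 had 23, 88 and 31 counts, with log2 ratios of 1.85 (1.25 to 2.66) and 0.22 (-0.58 to 1.09). COL4A4 was therefore higher in both lines and COL4A3 in CAL27/5FU alone. As log2 (FPKM + 1) these ratios were within 2-fold, at 0.44 and 0.31 for COL4A4 and at 0.27 for COL4A3 in CAL27/5FU. Below 1 FPKM a pseudocount of 1 holds any ratio within 2-fold, so this setting is no check on the calls. Between the resistant lines COL4A3 was lower in CAL27/OXA (log2 -1.62, -2.33 to -1.08). These levels were low in every library, at most 0.490 FPKM, against 10.6 to 12.8 FPKM for COL4A5. Of the 10 tested genes nearest to COL4A3, 5 were higher in CAL27/5FU, among them COL4A4, and the median was 1.02. Of the 10 nearest to COL4A4, 4 were higher, among them COL4A3, with a median of 0.26. Among all tested genes, 8.46% were higher. COL4A3 and COL4A4 start with 111 bases between them in GENCODE 29, at chr2:227164454-227164564, and the stretch between them, shown since both genes were higher in CAL27/5FU, reads on the plus strand, with its 1 GC box in capitals, as follows.
COL4A4 to COL4A3: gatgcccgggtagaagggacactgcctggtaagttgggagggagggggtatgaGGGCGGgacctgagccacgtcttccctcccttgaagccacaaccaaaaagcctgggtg
The bases of this stretch were 61.3% G or C, with 3 CpG, and held no match to the other motifs.

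COL4A5 and COL4A6, which join in the basement membrane of skin and other squamous epithelia, stayed within 2-fold. COL4A5 had 2877, 2646 and 3615 counts and COL4A6 902, 1037 and 1681. COL4A6 was highest in CAL27/OXA, with a log2 ratio of 0.71 (0.59 to 0.83) to CAL27. Of the 6 type IV chains, 3 were higher in CAL27/5FU and 1 in CAL27/OXA, and 0 were lower than in CAL27, beside 8.46% and 6.54% of all tested genes higher and 6.72% and 9.28% lower. The summed type IV level was 43.95, 79.3 and 52.9 FPKM.

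The fibrillar class held the most chains but a small share of the collagen FPKM. COL27A1, an unusual fibrillar chain of cartilage and epithelia, was the most abundant of the class by FPKM (12.8, 12.3 and 9.47). It had 4166, 3590 and 3214 counts and stayed within 2-fold. COL5A1, which starts and limits fibril growth, had 4305 counts in CAL27 against 3664 in CAL27/5FU and 2345 in CAL27/OXA. It was low in CAL27/OXA, 2.09-fold below CAL27 (log2 -1.07, -1.14 to -0.99), so that its interval crossed the 2-fold line, and total-count scaling put it within 2-fold. COL5A2, with 98, 127 and 175 counts, was within 2-fold in both lines.

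COL1A1, the main chain of collagen I, had 1387, 1068 and 1050 counts. Its log2 ratios were -0.38 (-0.50 to -0.27) in CAL27/5FU and -0.59 (-0.71 to -0.47) in CAL27/OXA. COL1A2, its partner, had 90, 300 and 212 counts and was 3.32-fold higher in CAL27/5FU (log2 1.71, 1.39 to 2.09) and 2.07-fold higher in CAL27/OXA (1.03, 0.68 to 1.42). The interval in CAL27/OXA crossed the 2-fold line, and as log2 (FPKM + 1) the ratios were 0.83 and 0.44, within 2-fold in both lines. COL1A1 stayed within 2-fold, and the FPKM ratio of COL1A1 to COL1A2 was 14.1 (11.4 to 17.6) in CAL27, 3.25 (2.86 to 3.71) in CAL27/5FU and 4.52 (3.90 to 5.27) in CAL27/OXA. In its usual form, the collagen I trimer of connective tissue holds more α1 than α2 chain. LUM, a fibroblast marker that binds fibrils, was higher in both resistant lines too (120, 414 and 877 counts), whereas THY1 and COL3A1 were at 0. PDGFRB had 35, 55 and 76 counts, with log2 ratios of 0.62 and 0.89, and FAP 5, 9 and 12 counts. The part of fibroblast transcripts in the COL1A2 ratio was not tested.

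Most other fibrillar chains were close to the limit of detection. COL2A1, the cartilage chain, had 23 counts in CAL27 against 0 in CAL27/5FU and 22 in CAL27/OXA. It was at least 7.70-fold lower in CAL27/5FU than in CAL27 and at least 6.46-fold higher in CAL27/OXA than in CAL27/5FU, taking the floor of 3 counts per library and the other count as it stands. The 95% intervals, which take in the error of both counts, begin at log2 -2.53 and 2.27. COL24A1 had 0, 24 and 14 counts, at least 7.96-fold higher in CAL27/5FU and at least 4.09-fold higher in CAL27/OXA than in CAL27 by the same floor, with intervals that begin at log2 2.58 and 1.54. As log2 (FPKM + 1), COL24A1 was within 2-fold in both lines (0.14 and 0.07), and also with a pseudocount of 0.1. With FPKM + 1, COL2A1 was within 2-fold too, at -0.15 in CAL27/5FU against CAL27 and 0.14 between the resistant lines. COL24A1 reached at most 0.0990 FPKM and COL2A1 at most 0.110. At such levels these settings hold any ratio within 2-fold, so they are no check on the calls. COL11A2 lay above the limit of detection, at 122, 201 and 203 counts, with log2 ratios of 0.70 (0.38 to 1.05) and 0.54 (0.21 to 0.88). COL11A1 had 0, 8 and 16 counts, COL5A3 4, 0 and 8, and COL3A1 was listed at 0 throughout. In all, 2 of the 8 tested fibrillar chains were higher and 1 lower in each comparison with CAL27 (of all tested genes, 8.46% and 6.72% in CAL27/5FU and 6.54% and 9.28% in CAL27/OXA). The chain lower in CAL27/OXA was COL5A1, whose interval crossed the 2-fold line. COL24A1 passed the filter only through the resistant lines, and COL2A1 only through CAL27 and CAL27/OXA. As log2 (FPKM + 1), none of the called fibrillar chains was past 2-fold in either line, an outcome fixed beforehand for COL2A1 and COL24A1 by their low level. The summed level was 32.0, 32.0 and 22.6 FPKM.

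**Figure D4:**
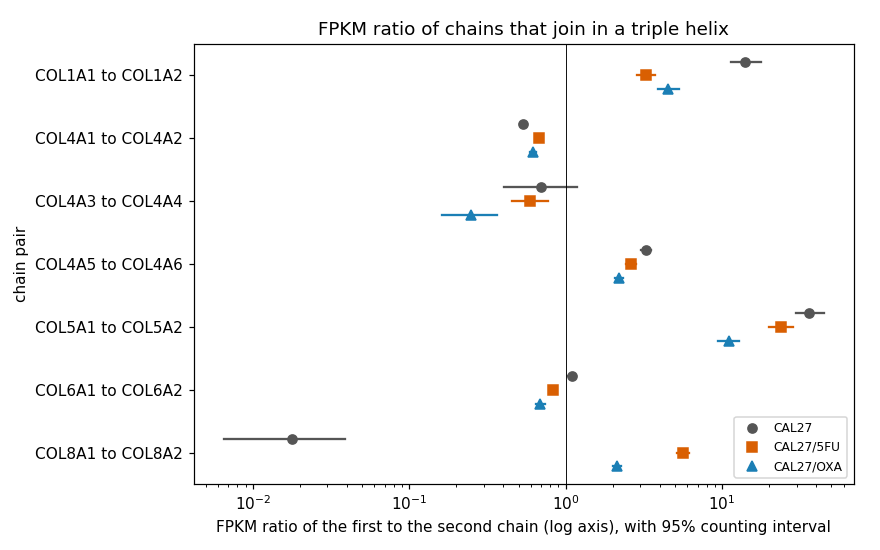
FPKM ratio of chains that join in the same trimer (log axis), with 95% counting intervals, in CAL27 (circles), CAL27/5FU (squares) and CAL27/OXA (triangles). The ratio of COL8A1 to COL8A2 crosses 1 between CAL27 (0.0179) and the resistant lines (5.60 and 2.12), and that of COL1A1 to COL1A2 is 14.1 in CAL27 and below 5 in both resistant lines.

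The beaded filament chains of collagen VI differed between the resistant lines. COL6A1 had 3211 counts in CAL27 against 3978 in CAL27/5FU and 1614 in CAL27/OXA. Its log2 ratio was 0.30 (0.23 to 0.37) in CAL27/5FU and -1.18 (-1.27 to -1.10) in CAL27/OXA, 2.27-fold lower. As log2 (FPKM + 1) the ratio in CAL27/OXA was -0.97, within 2-fold. COL6A2 had 2315, 3781 and 1851 counts, with log2 ratios of 0.70 (0.63 to 0.78) and -0.51 (-0.60 to -0.42). Both chains were thus highest in CAL27/5FU and lowest in CAL27/OXA, and between these lines they were 2.80-fold and 2.32-fold lower in CAL27/OXA (log2 -1.48, -1.57 to -1.40, and -1.21, -1.29 to -1.13). They lie near each other on chromosome 21, at 45981737 to 46005050 and 46098097 to 46132849. The 10 tested genes nearest to COL6A1 had a median log2 ratio of -0.09 between the resistant lines, and 1 of them, COL6A2 itself, was lower.

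Collagen VI usually assembles from α1, α2 and one further chain. COL6A3, the most common such chain, had 0 counts in CAL27 against 6 in CAL27/5FU and 10 in CAL27/OXA. COL6A5 had 12, 1 and 0 counts and COL6A6 2, 1 and 6. The FPKM ratio of COL6A1 to COL6A3 was 1156 (531 to 3152) in CAL27/5FU and 281 (153 to 588) in CAL27/OXA, and in CAL27, with 0 counts of COL6A3, the lower limit of its interval was 1517. Such further chains were therefore at or near the floor in every library in which COL6A1 and COL6A2 were at 8.79 to 30.3 FPKM.

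Among the FACIT chains, which sit on the surface of fibrils, 0 of the 5 tested were higher or lower in CAL27/5FU, and 1 was lower in CAL27/OXA, where 9.28% of all tested genes were lower (in CAL27/5FU, 8.46% were higher and 6.72% lower). COL12A1, the most abundant of them, had 7145, 9549 and 8892 counts (17.4, 26.0 and 20.8 FPKM) and log2 ratios of 0.41 (0.37 to 0.46) and 0.13 (0.08 to 0.17). COL16A1 had 2351, 4726 and 3252 counts. Its log2 ratio in CAL27/5FU was 1.00 (0.93 to 1.07), which fell just short of 2-fold, and DESeq2 size factors, total counts, the upper quartile and FPKM with a pseudocount of 1 or 0.1 put it past 2-fold, as did leaving out the prior count (2.0006-fold). COL21A1 had 104, 98 and 51 counts and was 2.33-fold lower in CAL27/OXA than in CAL27 (log2 -1.18, -1.73 to -0.72), an interval that crossed the 2-fold line. Between the resistant lines its log2 ratio was -1.09 (-1.64 to -0.62).

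The chains of collagen IX, a cartilage FACIT, were unequal. COL9A2 had 414, 454 and 422 counts and COL9A3 573, 488 and 397, both within 2-fold, whereas COL9A1, the remaining chain of the trimer, had 0, 0 and 6. Exons of COL9A3 overlap those of TCFL5 in GENCODE 29, and since the strand setting of the counting is not given, their reads may be shared. TCFL5 had log2 ratios of -0.37 and -0.13 against -0.24 (-0.42 to -0.06) and -0.72 (-0.91 to -0.53) for COL9A3. COL14A1 and COL22A1 were at 0 throughout, and COL19A1 (0, 8 and 2) and COL20A1 (1, 5 and 2) were below the filter. COL19A1 shares exon sequence with LMBRD1, at 2303, 1737 and 2331 counts.

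COL18A1, the multiplexin of basement membranes whose C-terminal fragment is endostatin, had 1880 counts in CAL27 against 3489 in CAL27/5FU and 2250 in CAL27/OXA (7.52, 15.6 and 8.65 FPKM). Its log2 ratio was 0.88 (0.80 to 0.97) in CAL27/5FU and 0.07 (-0.02 to 0.16) in CAL27/OXA. CAL27/5FU was thus the high library, although short of 2-fold, and total counts and FPKM with a pseudocount of 0.1 put it past 2-fold (up to 1.055). Exons of COL18A1 overlap those of SLC19A1, the reduced folate carrier, which had 1178, 1813 and 1543 counts and log2 ratios of 0.61 and 0.20. The part of shared reads was not tested. COL15A1, the other multiplexin, was at 0 in every library. COL28A1 had 138, 213 and 149 counts with a log2 ratio of 0.61 (0.30 to 0.94) in CAL27/5FU, and COL26A1 had 0, 4 and 0 counts.

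Compared with each other, the resistant lines differed past 2-fold in 7 of the 28 tested chains. In CAL27/OXA, 3 chains were higher than in CAL27/5FU (10.71%, against 4.18% of all tested genes), namely COL17A1, COL8A2 and COL2A1, and 4 were lower (14.29%, against 8.38%), namely COL6A1, COL6A2, COL4A3 and COL21A1. COL17A1 was 2.38-fold higher in CAL27/OXA (log2 1.25, 1.23 to 1.27). Of its 10 nearest tested genes, 3 were higher and 1 lower in this comparison, with a median log2 ratio of 0.80. The median of the 28 chains was -0.45, against 0.0079 for all tested genes. Class by class, the sum of FPKM in CAL27/OXA was 2.31 times that of CAL27/5FU for the transmembrane class, 1.17 times for the network class, 0.706 times for the fibrillar class, 0.667 times for type IV and 0.388 times for the beaded filament class.

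Genes that make, cross-link or bind collagen were set beside the chains in 6 lists of 74 genes. Their counts stand beside 8.46% higher and 6.72% lower among all tested genes in CAL27/5FU, and 6.54% and 9.28% in CAL27/OXA. Proline and lysine hydroxylases and chaperones prepare the chains in the endoplasmic reticulum. Of 17 tested genes of this list, 0 were higher and 2 lower in CAL27/5FU, and 0 were higher and 3 lower in CAL27/OXA, with medians of 0.06 and -0.18. P4HA1, a catalytic subunit of prolyl 4-hydroxylase, had 16006, 6797 and 4936 counts, with log2 ratios of -1.24 and -1.89. PLOD2, the lysyl hydroxylase of telopeptides, had 30293, 14277 and 11713 counts (-1.09 and -1.56). PLOD1, another lysyl hydroxylase, had 12649, 6646 and 4919 counts and was lower in CAL27/OXA (-1.55), its ratio in CAL27/5FU being -0.94. SERPINH1 (HSP47), the chaperone of procollagen, had 12670, 10855 and 8906 counts and stayed within 2-fold, as did P4HB with 50857, 41866 and 39939.

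Procollagen proteinases and lysyl oxidases trim and cross-link the secreted molecules. Of 12 tested genes, 4 were higher and 0 lower in CAL27/5FU, and 2 were higher and 2 lower in CAL27/OXA, with medians of 0.36 and -0.59. ADAMTS3, an N-proteinase, had 43, 107 and 165 counts (log2 1.27 and 1.71). LOXL3, a lysyl oxidase, had 49, 160 and 150 counts (1.66 and 1.39). Both were thus low in CAL27 and higher in the resistant lines. The other genes higher in CAL27/5FU were TLL1 (62, 137 and 91 counts) and PXDN (16, 71 and 14), a peroxidase that cross-links type IV collagen. TLL2, a tolloid-like proteinase, had 250, 267 and 138 counts and was lower in CAL27/OXA (-1.04), as was PCOLCE, an enhancer of C-proteinases, with 73, 87 and 39. LOX and LOXL2, the most abundant oxidases, had 5191, 3133 and 3027 and 7055, 6064 and 4106 counts, all within 2-fold of CAL27. The intervals of ADAMTS3 and TLL1 in CAL27/5FU and of LOXL3, TLL2 and PCOLCE in CAL27/OXA crossed the 2-fold line.

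Of 6 tested collagen receptors, 1 was higher in CAL27/5FU, and 2 were higher and 1 lower in CAL27/OXA. ITGA1, the α subunit of the α1β1 integrin, had 429, 1586 and 1068 counts, with log2 ratios of 1.87 and 1.12, the interval of the latter (0.96 to 1.29) crossing 2-fold. ITGA2, of the α2β1 integrin, had 1460, 2861 and 4012 counts (0.96 and 1.27). DDR1, the receptor kinase for collagen in epithelia, had 53411, 28035 and 23667 counts (-0.94 and -1.36). ITGA1 and ITGA2 were thus lowest in CAL27 and DDR1 highest in it. ITGA10, with 64, 41 and 51 counts, was highest in CAL27 (-0.63 and -0.50) and ITGB1, the shared β subunit, differed little (0.06 and 0.26), both within 2-fold.

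The 8 partners of COL17A1 and COL7A1 at the hemidesmosome and beneath it were all tested, and 0 were past 2-fold in either line. ITGA6 had 21011, 11277 and 24382 counts and ITGB4 29143, 15117 and 28410. These subunits of the hemidesmosome integrin, like COL17A1, had their lowest count in CAL27/5FU, with log2 ratios of -0.90 (-0.94 to -0.87) and -0.95 (-0.98 to -0.93) there and of 0.03 and -0.23 in CAL27/OXA. LAMB3, a laminin chain, had 55226, 44793 and 76914 counts. LAMA3 had a log2 ratio of 0.71 in CAL27/5FU. The list as a whole had medians of -0.15 and 0.01.

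Of the 9 tested partners of type IV collagen, 2 were higher and 1 lower in each line. LAMB1, the β1 chain of laminin, had 4299, 11984 and 12521 counts (log2 1.47 and 1.35). LAMA4 had 104, 369 and 88 counts and was higher in CAL27/5FU (1.801), where COL4A1 was also higher. HSPG2 (perlecan) had 15164, 14189 and 5488 counts and was lower in CAL27/OXA (-1.66). LAMA1 had 3, 0 and 220 counts. It passed the filter through CAL27/OXA alone. It was the other gene higher in CAL27/OXA, and its call as lower in CAL27/5FU rests on counts at or under the floor. The medians of the list were 0.01 and -0.28.

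Of the 9 tested proteins that bind or organise fibrils, 3 were higher and 1 lower in CAL27/5FU, and 2 were higher and 1 lower in CAL27/OXA. THBS1, thrombospondin 1, had 5936, 35384 and 12242 counts and was 5.93-fold higher in CAL27/5FU (log2 2.57). LUM, lumican, had log2 ratios of 1.76 and 2.66, and FMOD, fibromodulin, was also higher in both lines, with 8, 32 and 95 counts, by an interval that crossed 2-fold in CAL27/5FU (0.85 to 3.32). FBLN1, fibulin 1, had 2784, 989 and 2065 counts and was lower in CAL27/5FU (-1.50). TGFBI, which binds collagens and integrins, had 12846, 16361 and 4046 counts and was lower in CAL27/OXA (-1.86), the line in which COL6A1 was low. The medians were 0.34 and 0.85. These lists were not tested as sets, and each ratio above rests on 1 library per line.

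**Figure D5:**
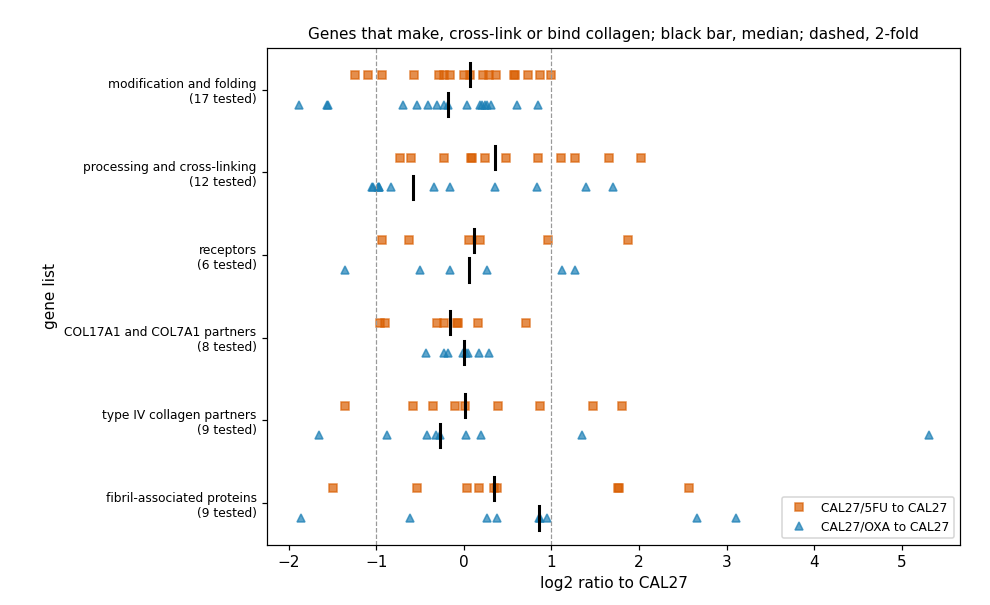
Log2 ratio to CAL27 of the tested genes of 6 lists around collagen, with squares for CAL27/5FU, triangles for CAL27/OXA, a black bar at the median of each list and dashed lines at 2-fold. All points of the COL17A1 and COL7A1 partners lie between the dashed lines, and the modification and folding list has points left of the lower line and 0 right of the upper one.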

How the data were processed

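Total RNA of CAL27, CAL27/5FU and CAL27/OXA cells was isolated with TRIzol, and libraries were made with a NEBNext Ultra RNA kit and sequenced on an Illumina platform by Novogene. The submitters' processing notes name CASAVA 1.8 and HISAT2 2.0.5 with GRCh38 (hg38). The counting tool, the annotation and the strand setting are not given in the sources used here. The authors deposited raw read counts listed by gene symbol (19220 genes) and FPKM values (19225 genes). Count, FPKM and total count gave 1 gene length within 0.1% for 100.0% of the 14367 genes counted in every library, so the deposited FPKM values are scaled by total counts alone. A further 3 columns of per-sample values, named as second samples of the same lines, match no sample label and were not used.

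Counts were scaled with TMM factors (edgeR 4.0.16, R 4.3.3), which were 0.932, 1.05 and 1.02, and log2 CPM used a prior count of 2. The comparisons took the 13676 genes that averaged 10 or more counts per library, and genes past 2-fold were called. The study also asks for an adjusted p-value from DESeq2, which needs replicates. Exact Clopper-Pearson 95% intervals were computed with scipy 1.17.1 and Wilson intervals for shares of a library. The floor of 3 counts was 0.0770 CPM for CAL27, followed by 0.0766 CPM for CAL27/5FU and 0.0675 CPM for CAL27/OXA. The scripts were tested on simulated data. Positions and translations came from GENCODE 29 (GRCh38) and promoter windows from RefSeq (GRCh38.p14). Protein sequences are not printed. Neighbours were the 5 nearest tested genes on each side.

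The collagen genes as a subject, their classes, the gene lists, thresholds and alternatives were chosen with earlier results of these data known, although the rule for members reads symbols alone, and they support nothing independently of them. Every chain is accounted for. In the 6 other lists, genes past 2-fold with a mean of at least 100 counts were to be named, at most 4 per direction. Genes within 2-fold or with a mean below 100 counts (P4HB, SERPINH1, TLL1, PXDN, PCOLCE, LOX, LOXL2, ITGA6, ITGB4, LAMA1, LAMA3, LAMB3, ITGA10, ITGB1, FMOD and the overlapping genes) were named after their values were seen. List members that are not named have no values of their own here and enter only the counts and medians of their list. As alternatives, size factors of DESeq2 1.42.0, total counts, upper quartile factors, other filters and prior counts, deposited FPKM with a pseudocount of 1 or 0.1, a 4-fold threshold and the whole interval past 2-fold were tried. For class shares they were CPM and the removal of the top chain of each class, and for partner chains counts divided by length.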

Additional observations from a re-analysis of the deposited data

Results flagged for a closer look

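COL6A1 and COL6A2, which encode chains of collagen VI, were singled out because their ratios to CAL27 lie on opposite sides of 0 in the resistant lines, intervals included, and because the lines also differ past 2-fold from each other. The log2 ratio of COL6A1 was 0.302 in CAL27/5FU and -1.1808 in CAL27/OXA, and that of COL6A2 was 0.7004 and -0.5117. Both ratios of a gene use the same CAL27 library, and with 1 library per line the difference was not tested.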

How the results depend on the processing

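No paired analysis was possible because each line has 1 labelled library (the columns without a label were not used), and for the same reason no replicate could be left out. The call of COL8A1 in both lines, of COL7A1 in both lines, of COL17A1 and COL4A1 in CAL27/5FU, of COL8A2 in CAL27/OXA, and of COL6A1, COL6A2, COL17A1 and COL8A2 between the resistant lines was kept in all 9 alternatives of scaling, filter, prior count and unit. No chain called in the report changed sign. COL5A1 fell within 2-fold in CAL27/OXA with total counts and both FPKM settings (up to -0.84), and COL6A1 with FPKM and a pseudocount of 1 (-0.97). The calls of COL1A2, COL4A3, COL4A4 and COL2A1 were lost with FPKM and a pseudocount of 1, and those of COL21A1 and COL24A1 with both FPKM settings. COL4A3, COL4A4, COL2A1, COL21A1 and COL24A1 lay below 1 FPKM in every library, where a pseudocount of 1 holds any ratio within 2-fold. COL24A1 also lay below 0.1 FPKM, so the same holds for it with a pseudocount of 0.1. These settings are therefore no check on those calls, and the cause of the other losses was not tested. Total counts shifted the median of all tested genes to 0.17 for CAL27/5FU and to 0.14 for CAL27/OXA.

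The counts of genes depend on the filter and the threshold. Without a filter beyond 1 count, 11 chains were higher and 6 lower in CAL27/5FU (1899 and 1555 of all genes), 8 chains were higher in CAL27/OXA (1348 genes higher and 1925 lower), and 6 chains were higher in CAL27/OXA than in CAL27/5FU (981 genes higher and 1861 lower). With a mean of at least 50 counts, 760 genes were higher in CAL27/5FU, and 369 were higher in CAL27/OXA than in CAL27/5FU. FPKM with a pseudocount of 1 left 3 chains higher in CAL27/5FU (503 genes higher and 311 lower), 2 chains higher and 1 lower in CAL27/OXA (368 and 481 genes), and 2 chains lower in CAL27/OXA than in CAL27/5FU (165 genes higher and 437 lower). A pseudocount of 0.1 left 2 chains lower in CAL27/OXA (909 genes). At 4-fold, 3 chains were higher and 1 lower in CAL27/5FU (404 and 286 genes), 2 were higher and 0 lower in CAL27/OXA (296 and 412 genes), and 1 was higher and 0 lower in CAL27/OXA against CAL27/5FU (167 and 352 genes). With the whole interval past 2-fold, 6 chains were higher and 3 lower in CAL27/5FU (749 and 593 genes). In CAL27/OXA, 4 chains were higher and 2 lower (526 and 864 genes). Between the resistant lines, 3 chains were higher and 3 lower in CAL27/OXA (319 and 709 genes).

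Class shares moved with the unit. As CPM not divided by length, the shares in CAL27, CAL27/5FU and CAL27/OXA were 7.84%, 10.0% and 6.02% for fibrillar, 8.55%, 19.4% and 11.6% for type IV, 0.386%, 3.57% and 3.87% for network, 51.2%, 28.5% and 57.2% for transmembrane and 18.1%, 8.60% and 5.66% for anchoring fibril chains. Without the chain with the highest FPKM of each class in each library, they were 23.9%, 15.9% and 15.4% for fibrillar, 30.3%, 33.5% and 37.7% for type IV, 0.112%, 3.25% and 11.6% for network and 0.412%, 0.274% and 0.222% for transmembrane chains. The network chain left out was COL8A2 in CAL27 and COL8A1 in the resistant lines, and the beaded filament chain COL6A1 in CAL27 and COL6A2 in them, so that these sums are not of the same chains and no change of the network share is read from them. The anchoring fibril class has 1 chain and no value there. Partner ratios from counts and length equal those from FPKM by construction, since the length was itself derived from counts and FPKM, and are no check on them. Chains below about 100 counts have wide counting intervals, so depth limits what can be said of them.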
